A study of Homo sapiens with 6 samples.

Results

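The genes described here are 10 genes of TGF-beta and BMP signalling, taken by symbol from a table of 20356 gene IDs: TGFB1, TGFB2, TGFBR1, TGFBR2, SMAD3, SMAD7, BAMBI, PMEPA1, ID1 and ID3. All 10 symbols were found, each on 1 row. RNA sequencing had been performed on 3 libraries of H1975, a human lung adenocarcinoma line with mutant EGFR grown in serum-supplemented medium, and on 3 libraries of H1975 OR, its osimertinib-resistant derivative grown in the same medium. Osimertinib inhibits mutant EGFR and was present at 1 µM in the resistant cultures, while parental cultures had none, so the resistant state and exposure to the drug cannot be told apart. The libraries of a group are described as biological replicates. The resistant group comes from a single derivative, so the p-values measure the spread among libraries of these lines and not among independently derived lines. The question of the series was which genes differ in expression before and after resistance developed.

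TGF-beta and BMP ligands are secreted dimers that bring type II and type I receptor kinases together at the cell surface. The type I receptor then phosphorylates SMAD proteins, SMAD2 and SMAD3 on the TGF-beta side and SMAD1, SMAD5 and SMAD9 on the BMP side, which join SMAD4 and enter the nucleus. Inhibitory genes such as SMAD7 and PMEPA1 are themselves induced by the signal, and ID1 and ID3 are classic early targets of BMP. In carcinoma cells the pathway is known both for growth arrest and for the switch from epithelial to mesenchymal form.

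Levels are FPKM, the fragments of a gene scaled by its length and by the fragments mapped in the library, which allows levels to be compared between genes. The estimated mapped sequence was 9.72 to 14.7 gigabases per library, and 11410 to 11555 genes of the table reached 1 FPKM. A gene was tested with limma on log2(FPKM + 1) if its mean was at least 1 FPKM in either group. All 10 genes passed this filter, BAMBI through the resistant libraries only. The epithelial identity of the line was checked on listed markers. All 6 epithelial markers fell, beside 38.1% of all tested genes. Their summed FPKM was 2949 to 3466 in parental and 914.5 to 991.8 in resistant libraries. The keratin genes KRT8, KRT18 and KRT7 fell to means of 384.1, 273.7 and 289.1 FPKM from 507.8, 430.9 and 1451, while KRT19 fell from 574.3 to 4.58 and the epithelial adhesion gene EPCAM from 210.7 to 1.02 FPKM. The E-cadherin gene CDH1, tested through its parental level alone, was at 64.4 to 71.4 FPKM in the parental and at most 0.0354 FPKM in the resistant libraries. The lung lineage factor gene NKX2-1 was at 23.6 to 28.7 FPKM in parental cells, and all 3 resistant libraries list it at 0. The resistant libraries thus lacked this lineage marker of the labelled tissue. Of 6 lung lineage markers 2 were tested, NKX2-1 and FOXA2, both through their parental level alone, and both fell. The other 4, NAPSA, SFTPB, SFTPC and SLC34A2, had means of at most 0.965 FPKM in either group.

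The 3 genes with a single listed start that changed by at least 1 on the log2 scale, BAMBI upward and ID1 and ID3 downward, are shown first by the 250 bases before that start, 5′ to 3′ on the strand of the gene. The sequences are from RefSeq on GRCh38.p14, with BAMBI at chr10:28677271-28677520 on the plus strand, ID1 at chr20:31605039-31605288 on the plus strand and ID3 at chr1:23559502-23559751 on the minus strand. Capitals mark matches on either strand to CAGAC, the core of a SMAD binding element, and to GGCGCC, a GC-rich element bound by BMP SMADs.
BAMBI: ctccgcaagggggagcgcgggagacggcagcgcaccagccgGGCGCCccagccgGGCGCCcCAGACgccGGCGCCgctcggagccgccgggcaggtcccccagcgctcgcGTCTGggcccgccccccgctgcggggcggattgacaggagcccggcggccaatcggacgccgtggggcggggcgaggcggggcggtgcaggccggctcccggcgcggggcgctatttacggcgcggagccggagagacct
ID1: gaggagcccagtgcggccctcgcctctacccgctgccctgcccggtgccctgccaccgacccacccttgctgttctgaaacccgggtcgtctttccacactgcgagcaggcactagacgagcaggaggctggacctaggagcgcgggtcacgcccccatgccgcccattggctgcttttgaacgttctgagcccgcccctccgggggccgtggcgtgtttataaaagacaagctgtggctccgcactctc
ID3: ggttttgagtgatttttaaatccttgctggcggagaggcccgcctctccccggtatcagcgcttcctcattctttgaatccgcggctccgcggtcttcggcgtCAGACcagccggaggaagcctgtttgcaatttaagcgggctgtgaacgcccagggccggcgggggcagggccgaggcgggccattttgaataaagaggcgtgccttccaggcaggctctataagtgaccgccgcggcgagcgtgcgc

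The BAMBI window held 3 matches to GGCGCC and 2 to CAGAC, none of them overlapping. The ID1 window held no match to either, and the ID3 window held 1 match to CAGAC. Of 34788 distinct promoter windows of the same length, 38.0% held CAGAC and 16.4% held GGCGCC, while 8.82% and 3.09% held at least 2 matches. They were not matched for the share of G and C, which was 81.2% for BAMBI, 66.0% for ID1 and 62.0% for ID3. The E-box CACGTG, searched as well, was in none of the 3 windows and in 6.31% of all windows. PMEPA1 has 4 listed starts, whose windows held 0 or 1 match to CAGAC and 0 or 1 to GGCGCC. These matches describe letters only, and an absent match says nothing of elements farther away.

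Of the 10 genes, 5 rose and 4 fell at an FDR of 0.05 (limma, Benjamini-Hochberg over all 12107 genes tested), which is near the 78.0% of all tested genes that passed. By direction, 39.9% of all tested genes were higher and 38.1% lower in resistant cells. Of the 10 genes, 4 also moved by 1 or more on the log2 scale, against 19.3% of all tested genes. BAMBI was the 1 that rose by this much, beside 9.95% of all tested genes, and PMEPA1, ID1 and ID3 were the 3 that fell, beside 9.39%. The median change of the 10 was 0.02 and their median absolute change 0.82 on the log2 scale, beside 0.01 and 0.45 over all tested genes. Of the 9 genes with 1 FPKM in each group, which leaves out BAMBI, 4 rose and 4 fell. When only genes at this level were tested, 4190 of all 10829 rose and 4027 fell. With median-of-ratios scaling 4 of the 10 rose and 5 fell. The libraries of the 2 groups did not overlap for 9 of the 10 genes, beside 79.8% of all tested genes.

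**Figure D1:**
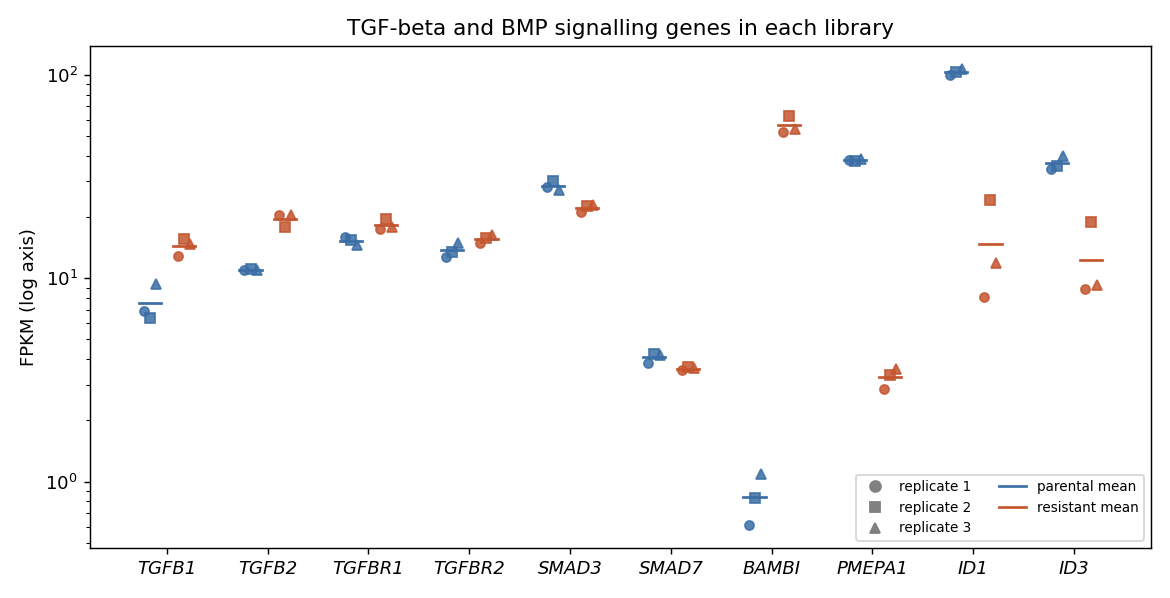
FPKM of the 10 genes in each of the 6 libraries, on a log axis, with parental libraries in blue, resistant libraries in orange, marker shapes for replicates 1 to 3 and bars at the group means. BAMBI moved from below 1.1 to above 52 FPKM, PMEPA1 fell in all 3 resistant libraries to below 3.6, and ID1 and ID3 were spread widely among the resistant libraries.

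Both ligand genes rose. TGFB1 (ENSG00000105329, chr19:41807492-41859816, GRCh37), which encodes the ligand TGF-beta 1, had FPKM of 6.87, 6.40 and 9.35 in parental replicates 1 to 3 and of 12.8, 15.6 and 14.6 in resistant replicates 1 to 3. Each resistant library was above every parental one, although parental replicate 3 stood above the other parental libraries. The change was 0.86 ± 0.128 (SE) on the log2 scale (limma adjusted p = 0.000248). The TGFB1 locus overlaps HNRNPUL1, CCDC97 and TMEM91 on the opposite strand, whether strand was used in counting is not given in the sources used here, and these 3 genes were lower in the resistant libraries (mean 36.5, 2.39 and 0.606 FPKM) than in the parental ones (41.2, 4.61 and 1.52 FPKM). TGFB2 (ENSG00000092969, chr1:218519577-218617961), which encodes TGF-beta 2, was at 11.01, 11.07 and 10.98 FPKM in parental and 20.6, 17.9 and 20.5 FPKM in resistant replicates 1 to 3. The groups did not overlap, with a spread of 0.0477 FPKM in parental and 1.51 FPKM in resistant libraries (SD, n = 3 each). The change was 0.78 ± 0.0662 (SE, limma adjusted p = 2.7e-07).

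The balance between the ligand genes did not differ beyond its spread. TGFB2 made up 52.4%, 52.8% and 46.3% of the summed FPKM of TGFB1, TGFB2 and TGFB3 in parental replicates 1 to 3 and 52.5%, 46.1% and 50.2% in resistant replicates 1 to 3. The sum itself was 21.0 to 23.7 FPKM in the parental and 38.8 to 40.8 FPKM in the resistant libraries. The within-library log2 ratio of TGFB2 to TGFB1, with 1 FPKM added to each, was 0.51 ± 0.263 in parental and 0.43 ± 0.231 in resistant libraries (SD, n = 3 each, exact two-sided permutation p = 0.7). With 3 libraries against 3 this test cannot go below 0.1.

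The receptor genes moved little. TGFBR1 (ENSG00000106799, chr9:101866320-101916474), the type I receptor kinase, was at 15.9, 15.5 and 14.5 FPKM in parental and 17.5, 19.6 and 17.9 FPKM in resistant replicates 1 to 3, without overlap. It rose by 0.25 ± 0.0653 on the log2 scale (limma adjusted p = 0.00394). TGFBR2 (ENSG00000163513, chr3:30647994-30735634), the type II receptor kinase that binds the ligand, was at 12.8, 13.4 and 15.0 FPKM in parental and 14.9, 15.7 and 16.4 FPKM in resistant replicates 1 to 3, and it was the only 1 of the 10 genes whose groups overlapped. Its change of 0.18 ± 0.0698 passed narrowly (limma adjusted p = 0.0312). The call ended in 6 of 13 alternatives, among them leaving out parental replicate 1, parental replicate 2, resistant replicate 2 or resistant replicate 3, with adjusted p from 0.00787 to 0.146 over all 13. The log2 ratio of TGFBR2 to TGFBR1 was -0.15 ± 0.174 in parental and -0.22 ± 0.0899 in resistant libraries (SD, n = 3 each, exact permutation p = 0.6).

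SMAD3 (ENSG00000166949, chr15:67356101-67487533), which carries the TGF-beta signal to the nucleus, was at 28.2, 29.9 and 27.2 FPKM in parental and 21.1, 22.7 and 22.9 FPKM in resistant replicates 1 to 3. All resistant libraries lay below all parental ones, and the gene fell by 0.34 ± 0.0629 on the log2 scale (limma adjusted p = 0.000279). SMAD7 (ENSG00000101665, chr18:46446223-46477081), which encodes the inhibitory SMAD that blocks the type I receptor, was at 3.84, 4.25 and 4.202 FPKM in parental and 3.52, 3.66 and 3.61 FPKM in resistant replicates 1 to 3. Its groups did not overlap, but its change of -0.15 ± 0.0673 did not pass (limma adjusted p = 0.0612). It passed in 3 of 13 alternatives, those with no filter on low values, with median-of-ratios scaling and without trend or robust moderation, with adjusted p from 0.027 to 0.157 over the 13. Within libraries the log2 ratio of SMAD7 to SMAD3 was -2.53 ± 0.0798 in parental and -2.34 ± 0.0423 in resistant cells (SD, n = 3 each, exact permutation p = 0.1, the smallest possible).

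**Figure D2:**
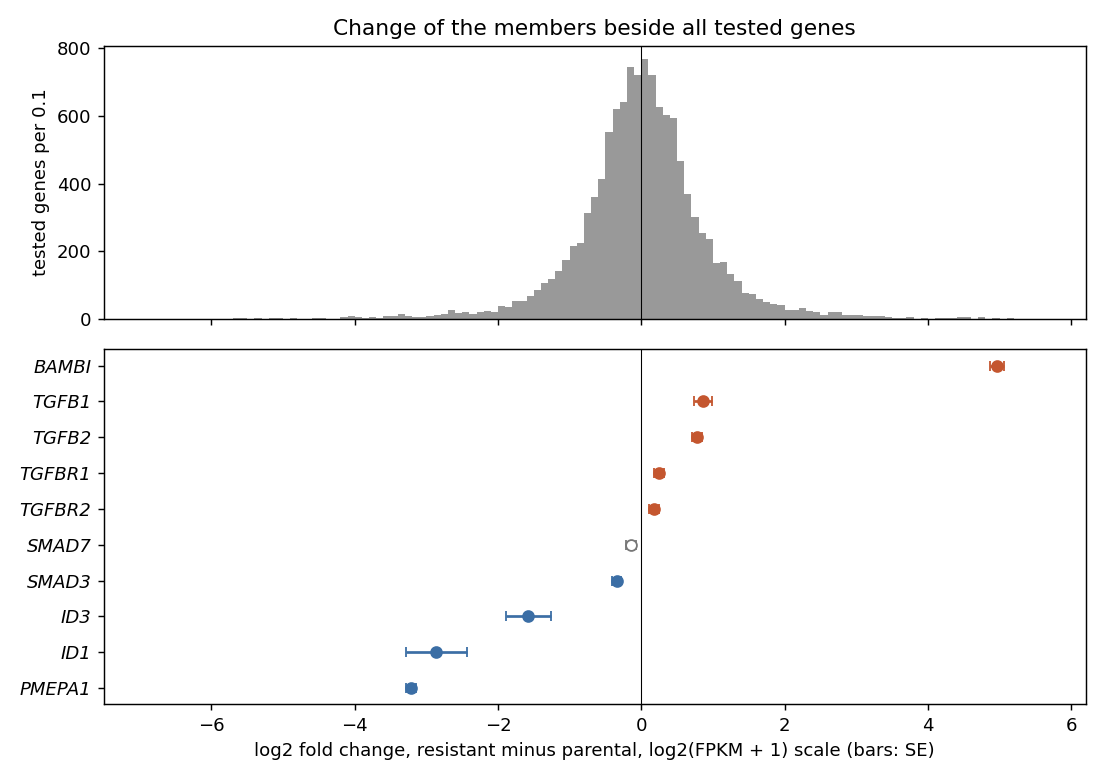
Upper panel, number of tested genes per 0.1 of log2 fold change, resistant minus parental. Lower panel, log2 fold change and SE of the 10 genes on the same axis, orange for higher and blue for lower past an FDR of 0.05 and open for SMAD7, which did not pass. BAMBI at 4.97 lies at the far right of the distribution, PMEPA1, ID1 and ID3 lie in its left tail, and the other 6 lie within 1 of 0.

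BAMBI and PMEPA1, the other inhibitor genes, had the largest changes of the 10 genes, in opposite directions. BAMBI (ENSG00000095739, chr10:28966271-28971868) encodes a membrane protein that resembles a type I receptor without a kinase domain and acts as a decoy for TGF-beta and BMP. It was at 0.612, 0.834 and 1.08 FPKM in parental and 52.5, 62.8 and 54.2 FPKM in resistant replicates 1 to 3. Low in every parental library and high in every resistant one, it rose 67.0-fold in mean FPKM and by 4.97 ± 0.0979 on the log2(FPKM + 1) scale. It entered the test through its resistant level alone and so had to differ. With no filter on low values its limma adjusted p was 9.0e-07. Since its parental mean was under 1 FPKM, the log2 value understates the change, and with a pseudocount of 0.1 it was 5.93. Its rank among the levels of all tested genes went from the 4.53 percentile to the 90.1 percentile. Within libraries the log2 ratio of BAMBI to TGFBR1 turned from -3.15 ± 0.248 to 1.57 ± 0.0537 (SD, n = 3 each, exact permutation p = 0.1, the smallest possible), so in resistant cells the decoy mRNA exceeded that of the receptor.

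PMEPA1 (ENSG00000124225, chr20:56223448-56286592) encodes a membrane protein that is induced by TGF-beta and sequesters SMAD2 and SMAD3. Its level was 38.3, 37.7 and 38.7 FPKM in parental and 2.85, 3.34 and 3.57 FPKM in resistant replicates 1 to 3. Both groups were tight, and the gene fell by 3.21 ± 0.0703 on the log2 scale (limma adjusted p = 1.0e-12), with a parental mean 11.8-fold above the resistant one. Its level rank among tested genes went from the 84.0 to the 19.4 percentile.

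ID1 and ID3 encode small proteins that bind basic helix-loop-helix factors and keep them off DNA. ID1 (ENSG00000125968, chr20:30193086-30194318) was at 99.9, 103.5 and 107.2 FPKM in parental and 8.04, 24.4 and 11.9 FPKM in resistant replicates 1 to 3. It fell by 2.86 ± 0.425 on the log2 scale (limma adjusted p = 0.00316), a larger SE than that of any other of the 10 genes. ID3 (ENSG00000117318, chr1:23884409-23886285) was at 34.5, 35.7 and 39.9 FPKM in parental and 8.87, 18.9 and 9.24 FPKM in resistant replicates 1 to 3, and it fell by 1.58 ± 0.319 (limma adjusted p = 0.00872). In both genes every resistant library lay below every parental one, and resistant replicate 2 was the highest of the resistant libraries. The log2 ratio of ID3 to ID1 was -1.47 ± 0.0610 in parental and -0.19 ± 0.271 in resistant libraries (SD, n = 3 each, exact permutation p = 0.1, the smallest possible).

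The high value in resistant replicate 2 was seen in ID1, ID2 and ID3. ID2, which belongs to the same family and was listed among the BMP targets, was at 8.11, 9.19 and 9.92 FPKM in parental and 4.13, 9.09 and 3.93 FPKM in resistant replicates 1 to 3. ID2, ID1 and ID3 exceeded the higher of the other resistant libraries by 0.98, 0.97 and 0.96 on the log2 scale. For ID1 and ID3 this gap ranked 8 and 9 among 12107 tested genes. Only 25 tested genes exceeded both other resistant libraries by at least 0.5 in that library, and the same count lay between 18 and 37 for each of the 6 libraries, so resistant replicate 2 did not stand apart over all genes. The other 8 of the 10 genes had gaps of at most 0.21 there. EGR1, an immediate early gene named after its values were seen, had the same pattern at 1.43, 3.07 and 1.33 FPKM in resistant replicates 1 to 3.

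Without resistant replicate 2, ID1 fell by 3.27 ± 0.140 (limma adjusted p = 5.1e-07) and ID3 by 1.90 ± 0.0763 (adjusted p = 6.7e-09). ID2, which did not pass with all libraries (-0.66 ± 0.327, limma adjusted p = 0.126), fell by 1.00 ± 0.0868 without it (adjusted p = 2.0e-06). ID4, the other member of the family, was at 8.22, 9.09 and 10.5 FPKM in parental and 0.532, 1.22 and 0.785 FPKM in resistant replicates 1 to 3. It was highest in resistant replicate 2 but not among the 25 genes set apart there, on a scale that understates differences of low genes. It entered the test through its parental level alone and so had to differ. With no filter on low values its limma adjusted p was 3.0e-05. The summed FPKM of ID1 to ID4 was 150.7 to 167.5 in the parental libraries and 21.6, 53.5 and 25.9 in resistant replicates 1 to 3. ID1 held 64.0% to 66.3% of that sum in parental and 37.3% to 46.0% in resistant libraries, while ID3 held 22.7% to 23.8% and 35.3% to 41.1%. What sets resistant replicate 2 apart in these genes was not tested.

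**Figure D3:**
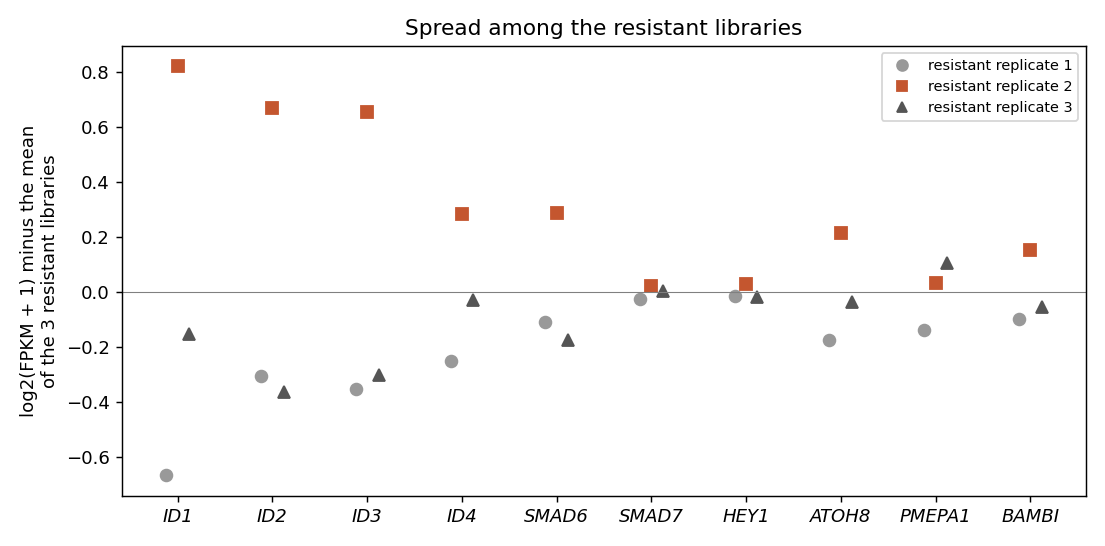
Level of 10 genes in each resistant library as log2(FPKM + 1) minus the mean of the 3 resistant libraries, with marker shapes for replicates 1 to 3. ID1, ID2 and ID3 were high in replicate 2, and ID4 and SMAD6 were highest there by less. SMAD7, PMEPA1 and the BMP target HEY1 were within 0.2 of their mean in all 3 libraries.

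Neighbouring genes were compared next, and here the start of a gene is its lowest coordinate on the chromosome, whatever its strand. All 15 tested genes whose starts lie within 2 Mb of the start of BAMBI on chromosome 10 (GRCh37) were higher in resistant cells, beside 39.9% of all tested genes. Their changes ran from 0.33 to 4.19 with a median of 2.26 on the log2 scale, and BAMBI at 4.97 lay above all of them. The nearest tested genes on either side, WAC and SVIL, had changes of 2.37 and 1.77. How far the rise of BAMBI follows that of its neighbourhood was not tested. For the windows that follow, the shares over all tested genes are 39.9% higher and 38.1% lower. Around PMEPA1 on chromosome 20, 1 of 20 tested neighbours was higher and 11 lower, with a median of -0.36 and a lowest value of -1.34. Around ID1, also on chromosome 20, 7 of 18 were higher and 6 lower (median 0.06), and around ID3 on chromosome 1, 9 of 33 were higher and 18 lower (median -0.20, lowest -1.42). PMEPA1, ID1 and ID3 each changed by more in the downward direction than any tested neighbour in its window. Around TGFB2, 5 of 7 were higher and 0 lower (median 0.61). For TGFB1, TGFBR1, TGFBR2, SMAD3 and SMAD7 the medians of the neighbours lay between -0.16 and 0.12.

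**Figure D4:**
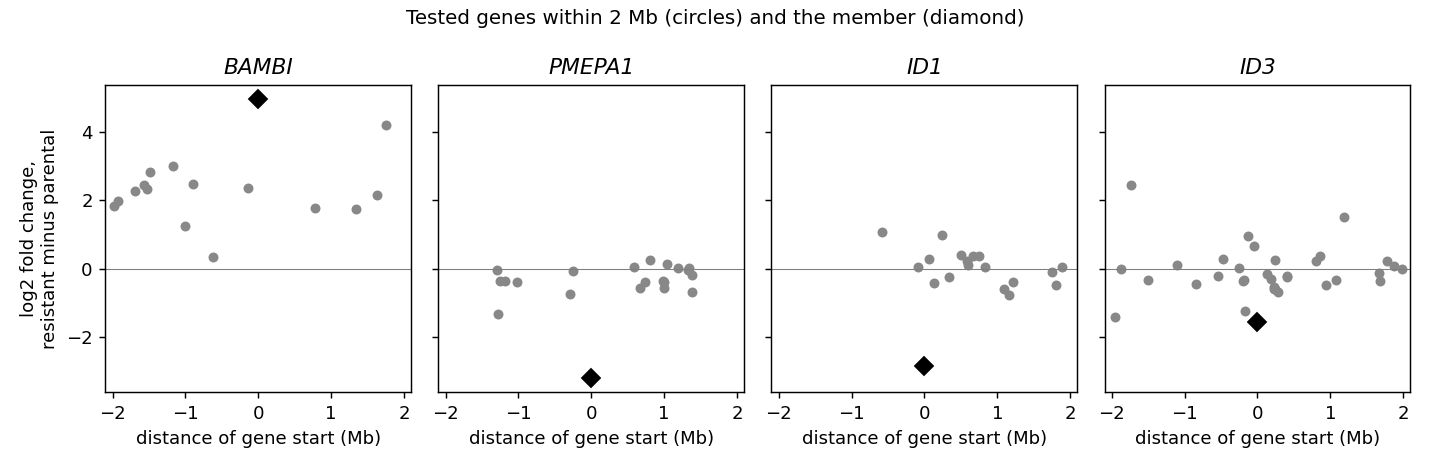
Log2 fold change, resistant minus parental, of tested genes whose starts (lowest coordinates) lie within 2 Mb of that of BAMBI, PMEPA1, ID1 or ID3 (circles). The horizontal axis is distance in Mb, and the gene itself is a diamond. All circles around BAMBI lie above 0, and those around PMEPA1, ID1 and ID3 scatter around or below 0 with the gene beneath them.

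The genes most like these 4 in level and change were found by the Euclidean distance of log2(FPKM + 1) over the 6 libraries, which come from 2 groups. Nearest to BAMBI were QPRT, CTGF and ISYNA1 (distances 0.73, 0.77 and 0.80), which reached means of 56.9, 45.2 and 51.1 FPKM in resistant cells. LSR (0.27), TSPAN13 (0.50) and ZNF525 (0.73) were nearest to PMEPA1, with LSR at 35.7 ± 1.29 and 3.18 ± 0.352 FPKM (SD, n = 3 each). For ID1 they were HMOX1 (1.14), CKB (1.22) and CAV2 (1.301), and for ID3 EVA1A (0.71), NEK2 (0.76) and TMEM54 (0.76). The distances were larger for ID1 than for BAMBI, PMEPA1 and ID3, and the reason was not tested.

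Beyond the 10 genes, 101 other genes of the pathway were listed by role, and 69 of them were tested. Of these 32 rose and 27 fell, 59 of 69 being near the 78.0% of all tested genes. Their median absolute change was 0.82 on the log2 scale, beside 0.45 over all tested genes. A gene that reached 1 FPKM in only 1 group had to differ, so the genes that reached it in parental and resistant cells alike are counted as well. Of 56 such genes 22 rose and 24 fell. When only genes at this level were tested, 4190 of all 10829 rose and 4027 fell.

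All 8 tested genes among 23 further ligand genes rose, beside 39.9% of all tested genes, with a median of 1.06. They include all 6 that reached 1 FPKM in each group. BMP4 and INHBE were tested through their resistant level alone and so had to differ. The other 15 ligand genes had means of at most 0.720 FPKM. BMP4, a BMP ligand, was at 0.0247, 0.0419 and 0.0150 FPKM in parental and 7.44, 8.08 and 7.98 FPKM in resistant replicates 1 to 3. BMP2, also a BMP ligand and picked for mention with its values in view, rose from 2.11 ± 0.172 to 7.39 ± 0.640 FPKM, and TGFB3, the third TGF-beta ligand, from 3.34 ± 0.173 to 5.61 ± 0.266 (SD, n = 3 each). GDF15, a stress-induced distant relative of the family, rose from 6.58 ± 1.08 to 45.4 ± 7.68 FPKM, and INHBE, an activin subunit gene, from 0.0837 ± 0.0353 to 6.04 ± 1.48.

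Of 11 genes for latency and activation of TGF-beta, 9 were tested, 5 rose and 3 fell, beside 39.9% higher and 38.1% lower of all tested genes. Of the 7 reaching 1 FPKM in each group 4 rose and 2 fell. The genes of latent TGF-beta binding proteins LTBP1 (log2 fold change 1.18), LTBP3 (1.41) and LTBP4 (0.70) rose. ITGB6, which encodes the beta subunit of an integrin that releases TGF-beta in epithelia, was at 11.9, 9.11 and 12.1 FPKM in parental and 0.259, 0.00689 and 0.0270 FPKM in resistant replicates 1 to 3. It was tested through its parental level alone and so had to differ. Its partner gene ITGAV (-0.91) and THBS1 (-0.73), which encodes a matrix activator of TGF-beta, fell. ITGB8, another integrin beta subunit gene whose product pairs with that of ITGAV to activate TGF-beta, went the other way, from 0.159 ± 0.0488 to 3.44 ± 0.0756 FPKM (SD, n = 3 each). It was chosen after its values were seen, and it was tested through its resistant level alone.

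Among 12 further receptor genes, 9 were tested, 5 rose and 1 fell, beside 39.9% higher and 38.1% lower of all tested genes. Of the 6 reaching 1 FPKM in each group 2 rose and 1 fell. The type I receptor genes BMPR1A (0.54) and ACVR1 (0.26) rose, while ACVR1B, the activin type I receptor gene, fell by 0.82 on the log2 scale. BMPR2, the BMP type II receptor gene, was at 5.18 ± 0.0604 and 4.98 ± 0.285 FPKM (SD, n = 3 each) and did not pass (limma adjusted p = 0.501). Of 5 further SMAD genes 4 were tested, and 2 rose and 0 fell, beside 39.9% higher and 38.1% lower of all tested genes. SMAD1, a transducer of BMP signals, rose from 3.55 ± 0.346 to 9.81 ± 0.571 FPKM. SMAD5, also a BMP SMAD, was at 12.8 ± 0.270 and 12.7 ± 0.998 FPKM and did not pass (limma adjusted p = 0.83). SMAD9, another BMP SMAD, was not tested, with means of 0.503 FPKM in parental and 0.112 FPKM in resistant libraries. SMAD4, the common partner, rose by 0.18 ± 0.0599 (limma adjusted p = 0.0141), a call that ended without resistant replicate 2 (adjusted p = 0.0527, range 0.00417 to 0.0527 over the alternatives). SMAD2 was at 16.98, 14.6 and 14.6 FPKM in parental and 18.7, 13.4 and 13.9 FPKM in resistant replicates 1 to 3 and did not pass (limma adjusted p = 0.894).

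Of 10 tested intracellular inhibitor genes, all reaching 1 FPKM in each group, 4 rose and 4 fell, which is near the 39.9% higher and 38.1% lower of all tested genes. The ubiquitin ligase genes SMURF1 and SMURF2, whose products target SMADs and receptors for breakdown, fell (log2 fold change -1.72 and -0.61), as did the SMAD corepressor gene SKIL (-0.75). The corepressor genes TGIF2 (1.01) and SKI (0.49) rose, as did the ubiquitin ligase gene NEDD4L (0.45). Of 13 extracellular antagonist genes 5 were tested, 3 rose and 1 fell, beside 39.9% higher and 38.1% lower of all tested genes. Of the 3 reaching 1 FPKM in each group 1 rose and 1 fell. NOG, which encodes the BMP antagonist noggin, was at 0.688, 0.674 and 0.760 FPKM in parental and 9.15, 11.1 and 9.71 FPKM in resistant replicates 1 to 3. It was tested through its resistant level alone and so had to differ. FSTL3, an activin antagonist gene, rose by 0.81 and TWSG1, a gene for a BMP-binding protein, fell by 0.63 on the log2 scale.

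Of 20 TGF-beta target genes 18 were tested, all reaching 1 FPKM in each group, and 15 fell and 3 rose, beside 38.1% lower and 39.9% higher over all tested genes. By 1 or more on the log2 scale 11 fell and 3 rose, and the median was -1.35. Many of these genes also respond to other pathways. TGFBI, a matrix gene named for its induction by TGF-beta, fell from 1430 ± 147 to 200.4 ± 26.3 FPKM (SD, n = 3 each). FN1, the fibronectin gene, and SNAI1, a gene for a repressor of epithelial genes, fell as well (log2 fold change -3.27 and -2.50). In the other direction CTGF, a matricellular gene that is also a target of YAP, rose from 0.941, 1.14 and 1.21 FPKM to 43.2, 57.0 and 35.3 FPKM. COL1A1, a fibrillar collagen gene, rose by 2.28 and the adaptor gene NEDD9 by 1.24 on the log2 scale. Of the 6 BMP target genes, all tested, 3 fell and 2 rose, beside 38.1% lower and 39.9% higher over all tested genes. Only 2 of the 6 reached 1 FPKM in each group, and of these 1 fell and 0 rose. ATOH8, a basic helix-loop-helix factor gene, moved opposite to the ID genes, from 0.157 ± 0.0663 to 5.13 ± 0.857 FPKM. It was tested through its resistant level alone and so had to differ.

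**Figure D5:**
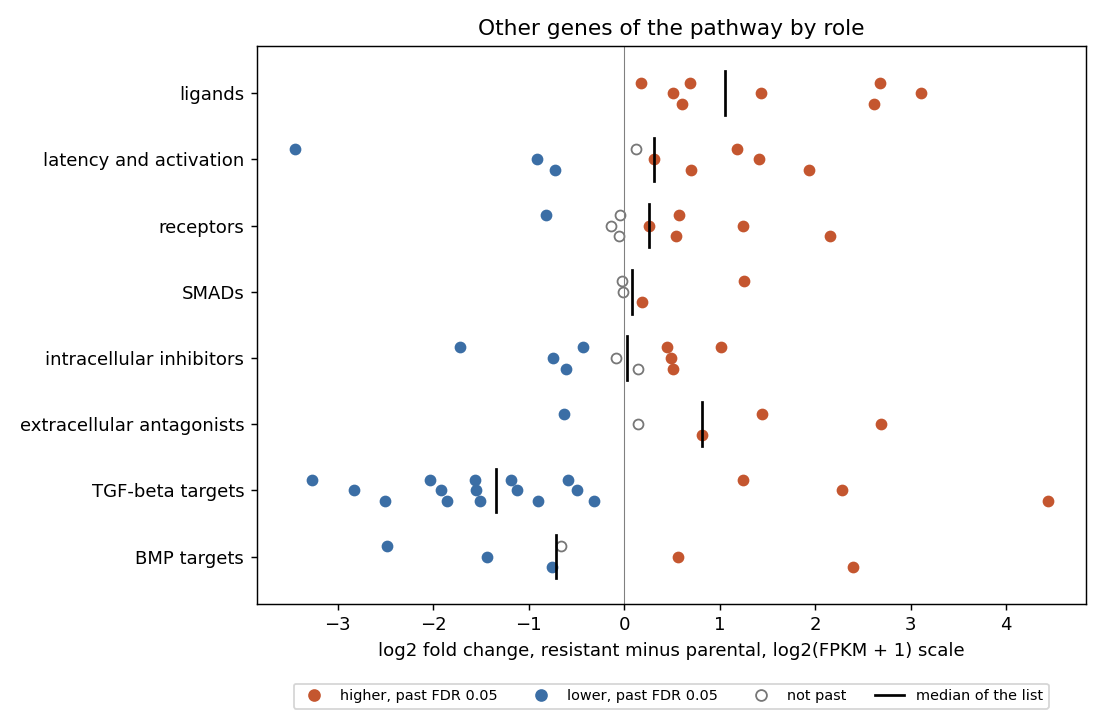
Log2 fold change, resistant minus parental, of the tested genes of 8 lists of the pathway, orange for higher and blue for lower past an FDR of 0.05, open circles for genes not past it, and a bar at the median of each list. Ligand genes all lie to the right of 0 and most TGF-beta target genes to the left.

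Markers of other cell types were also summed. The summed FPKM of 7 fibroblast markers was 0.210 to 0.396 in parental and 4.46 to 5.39 in resistant libraries. The resistant sum was mostly PDGFRB, at a mean of 3.94 FPKM. In parental libraries COL1A2, at a mean of 0.195 FPKM, was the largest part. PDGFRB was the 1 of 7 that was tested, through its resistant level alone. COL1A2, COL3A1, THY1 and LUM were higher in every resistant than in every parental library but at most 0.592, 0.349, 0.124 and 0.0285 FPKM, PDGFRA overlapped, and DCN was listed at 0 in all libraries. Of 5 leukocyte markers 2 were tested and rose, CD68 and CD14, and the sum over all 5 was 24.1 to 27.6 FPKM in parental and 70.3 to 80.2 FPKM in resistant libraries, with CD3E listed at 0 in all libraries and PTPRC at most 0.0404 FPKM. The sum over the 5 of 6 endothelial markers found was 1.88 to 2.53 FPKM in parental and 1.15 to 1.48 FPKM in resistant libraries. Of these, 2 were tested and went opposite ways. EGFL7 fell from a mean of 1.43 to 0.0695 FPKM, and CDH5 rose from 0.503 to 1.06 FPKM, each reaching 1 FPKM in 1 group only. In bulk RNA, fewer cells of a type and less RNA per cell cannot be told apart. What part these markers have in the results above was not tested.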

How the data were processed

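Total RNA of 3 parental and 3 resistant H1975 libraries was analysed, grouped by sample title. The authors deposited FPKM for each gene and library in a series table, and FPKM, TPM and mean coverage (signal) in a file for each library, per the file headers. The build is GRCh37 per the submitters' processing notes, where DESeq is the only tool named, without its role. The aligner, quantification tool, annotation and strand setting were not given in the sources used here. Series table and library files differed by more than 1e-05 FPKM for 1 to 4 genes per library. All columns were mapped to a sample. Depth in reads is unknown, so no interval for counting error is given. The mapped gigabases were estimated from the highest common ratio of deposited coverage to FPKM.

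Tests used limma 3.58.1 (R 4.3.3) on log2(FPKM + 1) for genes whose mean reached 1 FPKM in parental or resistant cells, which understates the change of low genes, with group as the only term, trend and robust moderation, two-sided, adjusted over all genes. Simulated data were used to test the script. Ratios within libraries were compared by exact two-sided permutation. Alternatives were another pseudocount, other filters, TPM, median-of-ratios scaling, plain moderation, a replicate block and leaving out each library. The 10 genes and the lists were chosen with earlier results of these data known. Named are the 10 genes, up to 3 genes per list and direction past 0.05 with at least 5 FPKM in the higher group, a few set genes, and nearest profiles and neighbours. A gene of this rule is not reported here. Others were named after their values were seen. Sequences were matched by symbol, with all 4 symbols sought found.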

Additional observations from a re-analysis of the deposited data

How the results depend on the processing

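The count of the 10 genes past an FDR of 0.05 was 8 to 10 over 13 alternatives, that of the other pathway genes 46 to 75 and that of all tested genes 8217 to 11014, each within 1.5 times the reported count. The 2 larger counts were lowest with 1 FPKM required in both groups. The count of 8 came there, where BAMBI was not tested, and without parental replicate 1 or 2 or resistant replicate 2 or 3. With a replicate block, used because the groups share replicate numbers, 9 of the 10 genes, 59 other pathway genes and 9422 of all genes passed. The deviations of same-numbered libraries correlated at -0.135, 0.0761 and 0.0990, so the numbers were not taken to pair the libraries. The block leaves the difference in the log2 ratio of ID3 to ID1 at 1.29 by construction. Its exact two-sided p, from sign flips of 3 paired differences, was 0.25, the smallest that test can give. For the 46 genes of the naming rule, 572 of 591 values kept direction and call, 10 lost the call, 5 gained it and 4, all of SMAD2, which did not pass, changed sign: 0.014 with TPM, and -0.16 to 0.066 over the libraries left out in turn. The difference in the TGFB2 to TGFB1 ratio was -0.23 to 0.041 and in the TGFBR2 to TGFBR1 ratio -0.14 to 0.030 over the libraries left out in turn; neither passed and the cause was not tested. Median-of-ratios scaling moved the median of all genes by -0.03. Tests on counts were not run because no counts of reads were used. The number of libraries, 3 per group, limits the precision.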
